A study of Mus musculus with 46 samples.

Results

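The genes described here are 41 genes of mitochondrial and peroxisomal fatty acid oxidation (FAO), taken by symbol from a written list and all found among the 25494 gene rows of the liver RNA-seq counts. The list holds 5 carnitine transferases and carriers, 9 enzymes of the mitochondrial spiral, 4 auxiliary enzymes for unsaturated fatty acids, 3 electron transfer flavoprotein genes, 6 peroxisomal enzymes, 7 acyl-CoA thioesterases, 4 acyl-CoA synthetases, and the single genes Aldh3a2, Bdh1 and Pdk4. Male C57BL/6 mice, bought at 5 weeks of age, ate a lipid-rich diet (LD; 60% of energy from lipid, labelled high fat) or a carbohydrate-rich diet (CD; 70% of energy from carbohydrate, labelled low fat) for 20 weeks. For each diet, the liver data used here come from 5 mice for RNA-seq, 3 samples for ChIP-seq of the histone mark H3K27ac, 2 samples for each of the transcription factors Hnf4α and C/EBPα, and 2 samples, pooled by the authors, for promoter capture Hi-C (PCHi-C). The labels name no transgene or deletion, the feeding state at liver collection is not given in the sources used here, and whether the ChIP-seq and RNA-seq samples came from the same mice is not stated, so p-values measure the spread between these samples.

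Fatty acids are activated to acyl-CoA, carried into mitochondria as carnitine esters and shortened there by repeated rounds of dehydrogenation, hydration, dehydrogenation and thiolysis. Very long and branched chains are first shortened in peroxisomes, and the acetyl-CoA made in liver feeds the citric acid cycle or ketone bodies. Many of these genes are known targets of the nuclear receptor PPARα, and Hnf4α and C/EBPα are transcription factors that maintain the hepatocyte program.

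RNA depth was 31707963 to 39012699 counted read pairs per mouse, and all 41 genes passed the filter on low counts among 13494 genes tested. Values per mouse are CPM, which are counts scaled to library size with TMM, a correction for library composition, and a gene was called at an edgeR adjusted p under 0.05 with a fold change above 1.2. By this rule, 23 of the 41 genes rose on LD, 0 fell and 18 were not called. Over all genes tested, 13.8% were called higher and 11.1% lower on LD, together 24.9%. By the adjusted p alone, 24 of the 41 genes and 28.1% of all genes passed in either direction. The log2 fold change of the 41 genes had a median of 0.37, against -0.0019 over all genes, and was positive for 38. The 5 LD mice lay above the 5 CD mice without overlap for 19 genes, all of them called, whereas 10.2% of all genes tested showed this separation. The size of the change was uneven along the pathway. The median log2 fold change was 0.77 for thioesterases, 0.57 for the carnitine group, 0.44 for auxiliary enzymes, 0.41 for peroxisomal enzymes, 0.20 for the mitochondrial spiral, 0.08 for acyl-CoA synthetases and 0.07 for the electron transfer flavoprotein genes. These medians describe the lists and carry no test between steps. In bulk liver, fewer cells of a type and less RNA per cell cannot be told apart.

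**Figure D1:**
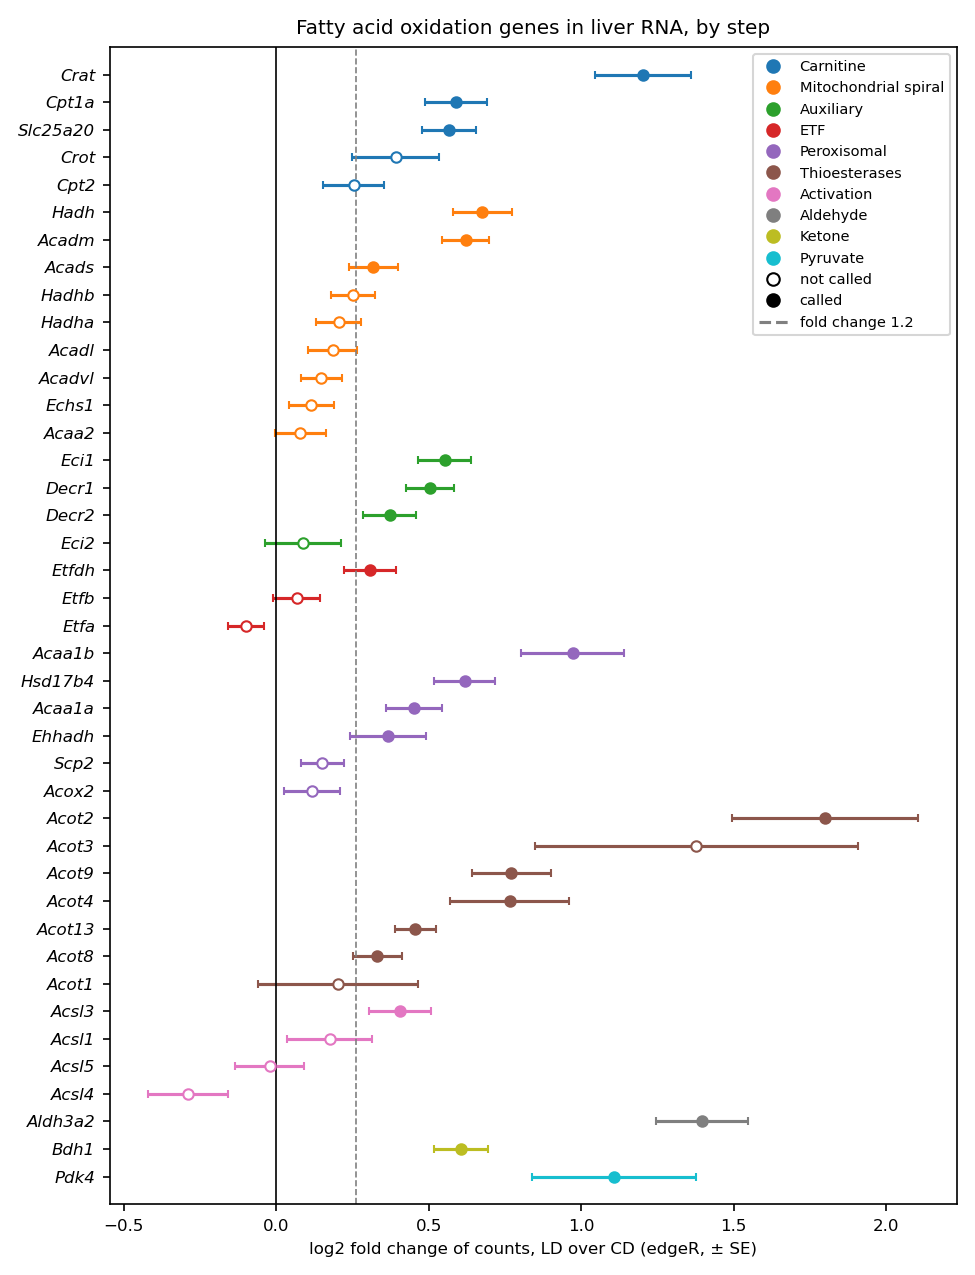
log2 fold change (LD over CD) of the 41 genes with the standard error of the edgeR fit, grouped by step, with called genes filled and the others open, where the dashed line marks a fold change of 1.2. The 23 filled points all lie to the right of the line, with Acot2 farthest at 1.80.

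The 8 DNA stretches below are shown with this account because Hnf4α or C/EBPα peaks lie there in all 4 samples of the factor, near genes on which the results below turn. They are given 5′ to 3′ on the plus strand of mm9, the build of the files, and none overlaps an annotated UTR. Capitals mark matches, on either strand, to CAAAGTNCA (an Hnf4α-type string, with 1 position opened after first matches were seen), to DR1 (a pair of AGGNCA copies with 1 base N between them, a form bound by Hnf4α and by PPARα with its partner RXR) or to TTGCNNAA (a C/EBP-type string). Sequences without capitals hold none of the 3 strings.
Cpt1a, chr19:3320195-3320413: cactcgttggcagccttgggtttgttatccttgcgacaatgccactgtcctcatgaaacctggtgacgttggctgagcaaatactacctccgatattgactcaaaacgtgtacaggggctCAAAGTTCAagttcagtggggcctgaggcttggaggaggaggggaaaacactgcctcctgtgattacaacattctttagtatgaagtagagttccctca
Hadha, chr5:30479048-30479280: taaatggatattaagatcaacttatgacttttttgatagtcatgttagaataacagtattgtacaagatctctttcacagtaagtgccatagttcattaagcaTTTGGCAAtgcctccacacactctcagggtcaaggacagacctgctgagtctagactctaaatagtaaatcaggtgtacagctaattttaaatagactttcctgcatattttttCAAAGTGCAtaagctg
Ehhadh, chr16:21788683-21788915: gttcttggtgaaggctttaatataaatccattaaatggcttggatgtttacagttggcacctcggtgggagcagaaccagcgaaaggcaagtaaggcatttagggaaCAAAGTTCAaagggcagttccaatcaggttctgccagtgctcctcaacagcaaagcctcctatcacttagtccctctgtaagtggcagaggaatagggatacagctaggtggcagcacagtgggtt
Acaa1b, chr9:119074027-119074252: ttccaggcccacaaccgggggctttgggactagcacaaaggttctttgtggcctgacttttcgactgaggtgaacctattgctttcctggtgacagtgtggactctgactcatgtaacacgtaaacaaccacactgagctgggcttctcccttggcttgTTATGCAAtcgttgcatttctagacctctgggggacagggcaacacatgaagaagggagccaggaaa
Acot3, chr12:85391705-85391933: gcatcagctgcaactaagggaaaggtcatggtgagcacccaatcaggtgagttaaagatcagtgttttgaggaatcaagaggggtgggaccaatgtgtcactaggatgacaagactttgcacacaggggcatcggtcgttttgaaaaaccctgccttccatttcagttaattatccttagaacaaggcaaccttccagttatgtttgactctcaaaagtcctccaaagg
Aldh3a2, chr11:61085183-61085403: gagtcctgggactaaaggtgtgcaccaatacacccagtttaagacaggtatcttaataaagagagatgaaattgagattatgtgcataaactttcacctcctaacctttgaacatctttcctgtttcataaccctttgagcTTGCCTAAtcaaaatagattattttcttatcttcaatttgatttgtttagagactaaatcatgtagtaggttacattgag
Pdk4, chr6:5446333-5446567: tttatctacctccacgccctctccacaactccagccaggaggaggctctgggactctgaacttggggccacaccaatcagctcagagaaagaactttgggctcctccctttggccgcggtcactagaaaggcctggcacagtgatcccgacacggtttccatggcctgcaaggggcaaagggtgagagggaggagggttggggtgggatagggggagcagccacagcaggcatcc
Acsl1, chr8:47563523-47563722: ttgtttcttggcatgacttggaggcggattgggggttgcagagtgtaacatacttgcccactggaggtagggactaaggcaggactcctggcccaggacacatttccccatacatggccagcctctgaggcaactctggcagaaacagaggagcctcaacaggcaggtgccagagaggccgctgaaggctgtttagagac
The Cpt1a, Ehhadh, Acaa1b, Aldh3a2 and Pdk4 stretches lie upstream of their genes between annotated genes, those of Hadha and Acsl1 are intronic in the named gene, and that of Acot3 lies upstream of Acot3 in an intron of 4732463B04Rik. The Acsl1 stretch is the central 200 bases of a C/EBPα locus, and the others are whole Hnf4α loci.

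The first step is activation. Of the 4 long-chain acyl-CoA synthetases, only Acsl3 was called (log2 fold change 0.41 ± 0.10 (SE), edgeR adjusted p = 0.00977). Acsl3 counts were 50.8, 71.8, 60.4, 56.4 and 59.2 CPM in the LD mice and 53.4, 46.7, 46.4, 38.9 and 39.9 CPM in the CD mice, so that LD replicate 1 fell within the CD range. Acsl1, the main liver isoform, averaged 1265 ± 198.7 CPM (SD, n = 5) in LD mice, against 1120 ± 215 CPM (SD, n = 5) in CD mice, and was not called (edgeR adjusted p = 0.378). Acsl5 gave a log2 fold change of -0.02 (edgeR adjusted p = 0.908), and its sign depended on the setting. Acsl4, which prefers arachidonic acid, gave -0.29 ± 0.13 (SE) and was not called (edgeR adjusted p = 0.119).

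Of the genes for carnitine transfer, Cpt1a, Slc25a20 and Crat rose. Cpt1a, which makes the carnitine ester and is the regulated gate of mitochondrial FAO, had 711, 626, 772, 846 and 644 CPM in the LD mice and 424, 422, 490, 549 and 506 CPM in the CD mice. Every LD mouse exceeded every CD mouse, with a log2 fold change of 0.59 ± 0.10 (SE, edgeR adjusted p = 0.001). Slc25a20, the translocase that exchanges acylcarnitine for carnitine, rose by a similar log2 fold change of 0.57 ± 0.09 (SE, edgeR adjusted p = 5.32e-04), again without overlap between the diets. Cpt2, which re-forms acyl-CoA on the inner membrane, averaged 146 ± 13 CPM (SD, n = 5) in LD mice. CD mice averaged 122 ± 18 CPM (SD, n = 5), and Cpt2 was not called (log2 fold change 0.25, edgeR adjusted p = 0.0713). A fit with limma on log2(TPM + 1) called Cpt2 (adjusted p = 0.0256). The median log2 fold change over all genes was 0.0563 in that fit, against -0.0019 by edgeR.

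Crat, which moves acetyl groups and other short acyl groups between CoA and carnitine, showed the strongest rise of the carnitine group. Its counts were 84.2, 84.8, 125, 139 and 113 CPM in the LD mice and 46.1, 40.8, 46.4, 61.1 and 43.1 CPM in the CD mice. The diets did not overlap, and the fold was 2.30 (log2 1.203 ± 0.16 SE, edgeR adjusted p = 2.85e-04). Crot, the peroxisomal transferase for medium chains, had 971, 1018, 1042, 1080 and 1293 CPM on LD against 663, 634, 1106, 808 and 910 CPM on CD. CD replicate 3 reached into the LD range, and Crot was not called (log2 0.39 ± 0.14 SE, edgeR adjusted p = 0.0547). With all mice, Crot was called by DESeq2 (adjusted p = 0.0275) and by limma on TPM (adjusted p = 0.0405 with a pseudocount of 1). Without CD replicate 3, both Crot and Cpt2 were called, with edgeR adjusted p = 0.0082 and 0.0157.

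Within the mitochondrial spiral, 3 of 9 genes were called. Acadm, the medium-chain dehydrogenase, had 519, 473, 544, 575 and 520 CPM in the LD mice and 337, 304, 363, 337 and 370 CPM in the CD mice. These ranges lay apart, with a log2 fold change of 0.62 ± 0.08 (SE, edgeR adjusted p = 1.04e-04). Hadh, which oxidizes medium- and short-chain 3-hydroxyacyl-CoA, had 525, 431, 563, 600 and 503 CPM on LD and 300, 290, 358, 329 and 364 CPM on CD. Its log2 fold change of 0.68 ± 0.10 (SE, edgeR adjusted p = 3.02e-04) was the largest of the spiral. Acads, the short-chain dehydrogenase, rose less, by 0.32 ± 0.08 (SE, edgeR adjusted p = 0.00918), also without overlap.

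The other 6 spiral genes were not called and had positive log2 fold changes. Acadvl, the very long-chain dehydrogenase, gave 0.15 and Acadl, the long-chain dehydrogenase, gave 0.18 (edgeR adjusted p = 0.124 and 0.0986). Hadha and Hadhb, the subunits of the trifunctional protein that handles long chains, gave 0.20 and 0.25. Hadhb passed the adjusted p threshold (edgeR adjusted p = 0.0196) but not the fold threshold, and Hadha passed neither (edgeR adjusted p = 0.0532). Both were called by limma on log2(TPM + 1), at 0.28 for Hadha and 0.33 for Hadhb (adjusted p = 0.00736 and 0.00594). In that fit the median log2 fold change over all genes was 0.0563, against -0.0019 by edgeR. The log2 fold change of Hadhb was 0.27 without LD replicate 1, 0.29 without LD replicate 2 and 0.28 without CD replicate 3, which made it a call in each case. Echs1, the short-chain hydratase, gave 0.11 and Acaa2, a thiolase, gave 0.08 (edgeR adjusted p = 0.269 and 0.523).

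Enzymes that prepare double bonds for the spiral rose in 3 of 4 cases. Eci1, the mitochondrial enoyl-CoA isomerase, averaged 194 ± 17 CPM (SD, n = 5) in LD mice, against 132 ± 14 CPM (SD, n = 5) in CD mice, a log2 fold change of 0.55 ± 0.09 (SE, edgeR adjusted p = 5.49e-04). Decr1, the mitochondrial 2,4-dienoyl-CoA reductase, rose by 0.51 ± 0.08 (SE, edgeR adjusted p = 5.42e-04), and Decr2, its peroxisomal counterpart, by 0.37 ± 0.09 (SE, edgeR adjusted p = 0.00661). For these 3 genes the diets did not overlap. Eci2, the second isomerase, gave 0.09 ± 0.12 (SE) and was not called (edgeR adjusted p = 0.638).

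Electrons from the acyl-CoA dehydrogenases pass through the electron transfer flavoprotein. Its subunit genes Etfa and Etfb gave log2 fold changes of -0.10 and 0.07 and were not called (edgeR adjusted p = 0.234 and 0.551). Etfdh, the oxidoreductase that hands the electrons to ubiquinone, rose by 0.31 ± 0.08 (SE, edgeR adjusted p = 0.0158), with LD replicate 2 at 376 CPM and the highest CD mouse at 378 CPM. Without LD replicate 4 the log2 fold change of Etfdh was 0.25, under the fold threshold.

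Among the 6 peroxisomal genes, 4 were called higher. Acaa1b, a 3-ketoacyl-CoA thiolase, had 1555, 1449, 1980, 2284 and 1711 CPM in the LD mice and 765, 668, 1120, 864 and 1161 CPM in the CD mice. No CD mouse reached the lowest LD mouse, and the log2 fold change was 0.97 ± 0.17 (SE, edgeR adjusted p = 0.0014). Acaa1a, its close copy, rose by 0.45 ± 0.09 (SE, edgeR adjusted p = 0.00281). How reads shared by the copies were counted was not examined here. Hsd17b4, the D-bifunctional protein, averaged 737 ± 91 CPM (SD, n = 5) in LD mice, against 480 ± 52 CPM (SD, n = 5) in CD mice, a log2 fold change of 0.62 ± 0.10 (SE, edgeR adjusted p = 6.62e-04).

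Ehhadh, the L-bifunctional enzyme, had 339, 301, 402, 429 and 396 CPM on LD against 243, 232, 314, 318 and 342 CPM on CD. The groups overlapped, and the call was narrow (log2 0.37 ± 0.12 SE, edgeR adjusted p = 0.041). It was lost without LD replicate 3, 4 or 5 or CD replicate 1, 2 or 3, with edgeR adjusted p between 0.0506 and 0.0969. Acox2, the oxidase for branched chains and bile acid intermediates, gave 0.12 and Scp2, the thiolase and lipid carrier, gave 0.15, and neither was called (edgeR adjusted p = 0.362 and 0.132).

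Acyl-CoA thioesterases release free fatty acid and CoA, and among the groups of several genes this one had the highest median. Acot2, a mitochondrial thioesterase, had 13.0, 10.9, 23.8, 22.9 and 20.7 CPM in the LD mice and 4.02, 2.98, 7.18, 4.51 and 7.48 CPM in the CD mice. The diets were separate, and its 3.49-fold rise (log2 1.80 ± 0.31 SE, edgeR adjusted p = 0.00204) was the largest among the 41 genes. Acot2 lies beside Acot1, Acot4 and Acot3 on chromosome 12, with neighbouring start sites 13772 to 28877 bp apart. How reads shared by similar copies in this cluster were counted was not examined here. Acot1, the cytosolic member, averaged 15.7 ± 4.0 CPM (SD, n = 5) in LD mice, against 13.6 ± 5.0 CPM (SD, n = 5) in CD mice, and was not called (edgeR adjusted p = 0.612).

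Acot3, a peroxisomal member, varied widely among mice, with 46.1, 22.9, 63.2, 49.8 and 14.5 CPM on LD and 11.3, 8.90, 25.7, 23.6 and 6.14 CPM on CD. LD replicates 2 and 5 fell within the CD range, and the log2 fold change of 1.38 ± 0.53 (SE) was not called (edgeR adjusted p = 0.0869). Acot3 was called without LD replicate 5 (edgeR adjusted p = 0.0482), and by DESeq2 (adjusted p = 0.0318). Acot4, the neighbouring peroxisomal enzyme for dicarboxylic acyl-CoA, rose by 0.77 ± 0.19 (SE, edgeR adjusted p = 0.0136), with 31.2 CPM in the lowest LD mouse and 33.6 CPM in the highest CD mouse.

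Of the thioesterases outside this cluster, Acot8, Acot9 and Acot13 were called, whereas Acot7, Acot11 and Acot12, which are on the list of other pathway genes, were not (log2 0.20, 0.17 and -0.06, edgeR adjusted p = 0.0927, 0.51 and 0.675). Acot9, a mitochondrial form, averaged 12.7 ± 2.5 CPM (SD, n = 5) in LD mice, against 7.44 ± 0.57 CPM (SD, n = 5) in CD mice, a log2 fold change of 0.77 ± 0.13 (SE, edgeR adjusted p = 8.08e-04). Acot13 rose by 0.46 ± 0.07 (SE, edgeR adjusted p = 3.47e-04) and Acot8, a peroxisomal form, by 0.33 ± 0.08 (SE, edgeR adjusted p = 0.00748). All 3 were without overlap between the diets.

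The single genes at the edges of the pathway were each called, and in each the diets did not overlap. Aldh3a2, which oxidizes fatty aldehydes to fatty acids, had 1089, 977, 1438, 1411 and 1265 CPM in the LD mice and 410, 379, 647, 434 and 478 CPM in the CD mice. Its 2.63-fold rise (log2 1.40 ± 0.15 SE, edgeR adjusted p = 6.30e-05) had the lowest adjusted p of the 41 genes. Bdh1, which interconverts the ketone bodies acetoacetate and 3-hydroxybutyrate, had 380, 350, 454, 478 and 406 CPM on LD and 270, 252, 289, 263 and 286 CPM on CD (log2 0.60 ± 0.09 SE, edgeR adjusted p = 3.32e-04). Pdk4, a kinase that inhibits pyruvate dehydrogenase and so spares glucose carbon, had 11.5, 14.7, 22.2, 14.1 and 22.5 CPM on LD and 11.0, 9.84, 6.45, 4.19 and 7.95 CPM on CD. LD replicate 1 lay just above CD replicate 1, and the log2 fold change was 1.11 ± 0.27 (SE, edgeR adjusted p = 0.012).

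**Figure D2:**
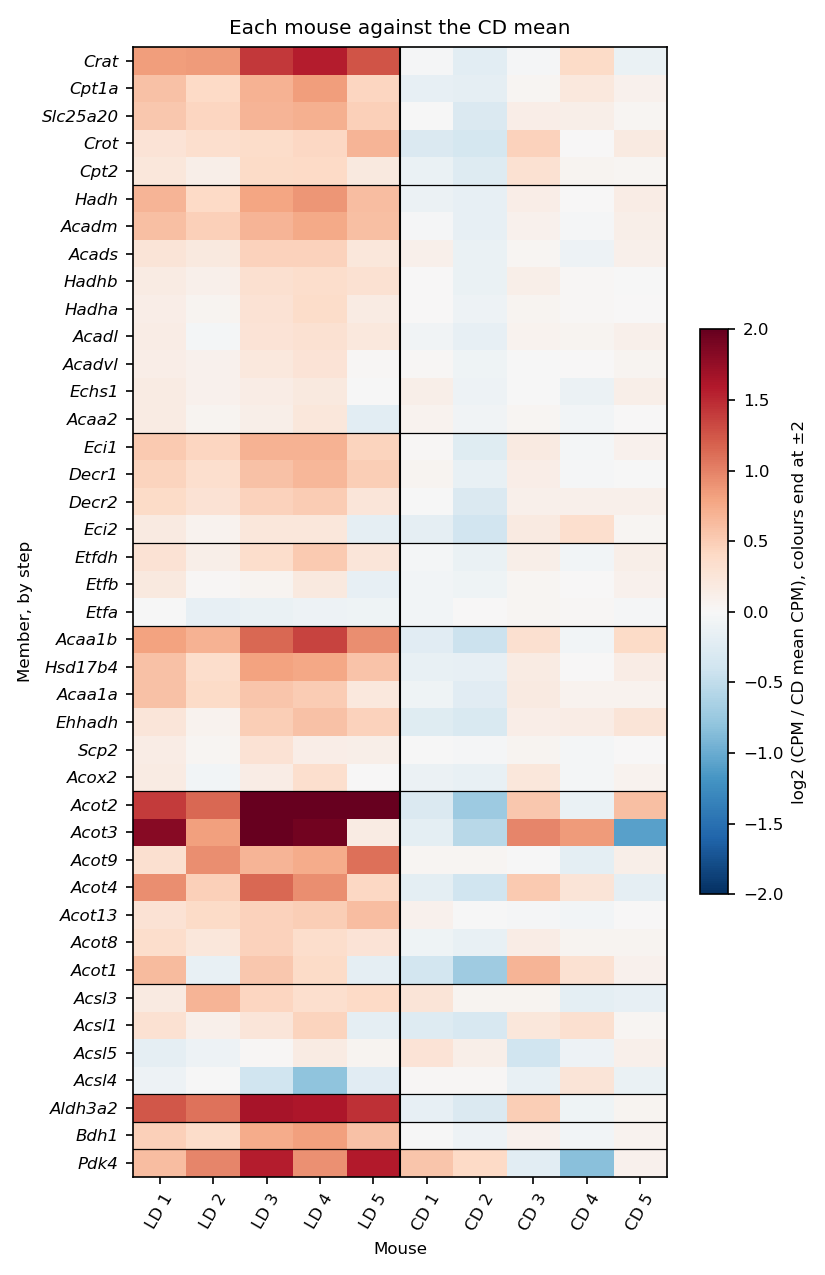
log2 ratio of each mouse's CPM to the CD mean for the 41 genes (rows, by step) in 5 LD and 5 CD mice (columns). The median over the 41 genes lay between 0.27 and 0.49 in the LD mice and between -0.16 and 0.11 in the CD mice.

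The mice of a diet also differed among themselves. LD replicates 3 and 4 had the highest medians over the 41 genes (0.46 and 0.49 on the log2 scale relative to the CD mean), and LD replicates 1, 2 and 5 lay at 0.31, 0.28 and 0.27. Among the CD mice, replicate 2 was lowest, with 6 of 41 genes above the CD mean, and replicates 3 and 5 had 33 each. Even LD replicate 5, the lowest of its group, had 33 of 41 genes above the CD mean.

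Levels between genes were compared in TPM, which divides by gene length. Scp2 was the most abundant on both diets (mean 3008 TPM on LD and 2566 TPM on CD), followed on LD by Acaa1b (2035 TPM), Acaa2 (1403 TPM) and Crot (734 TPM). Aldh3a2 moved from rank 15 of 41 on CD (264 TPM) to rank 5 on LD (734 TPM). Pdk4 was the least abundant on both diets (9.41 TPM on LD and 4.08 TPM on CD), and Acot2, which had the largest fold, was also low, at 15.8 TPM on LD. The summed TPM of the 41 genes was 14500 to 17460 in the LD mice and 11070 to 13240 in the CD mice, without overlap. Over all genes, limma on log2(TPM + 1) gave a median log2 fold change of 0.0563.

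**Figure D3:**
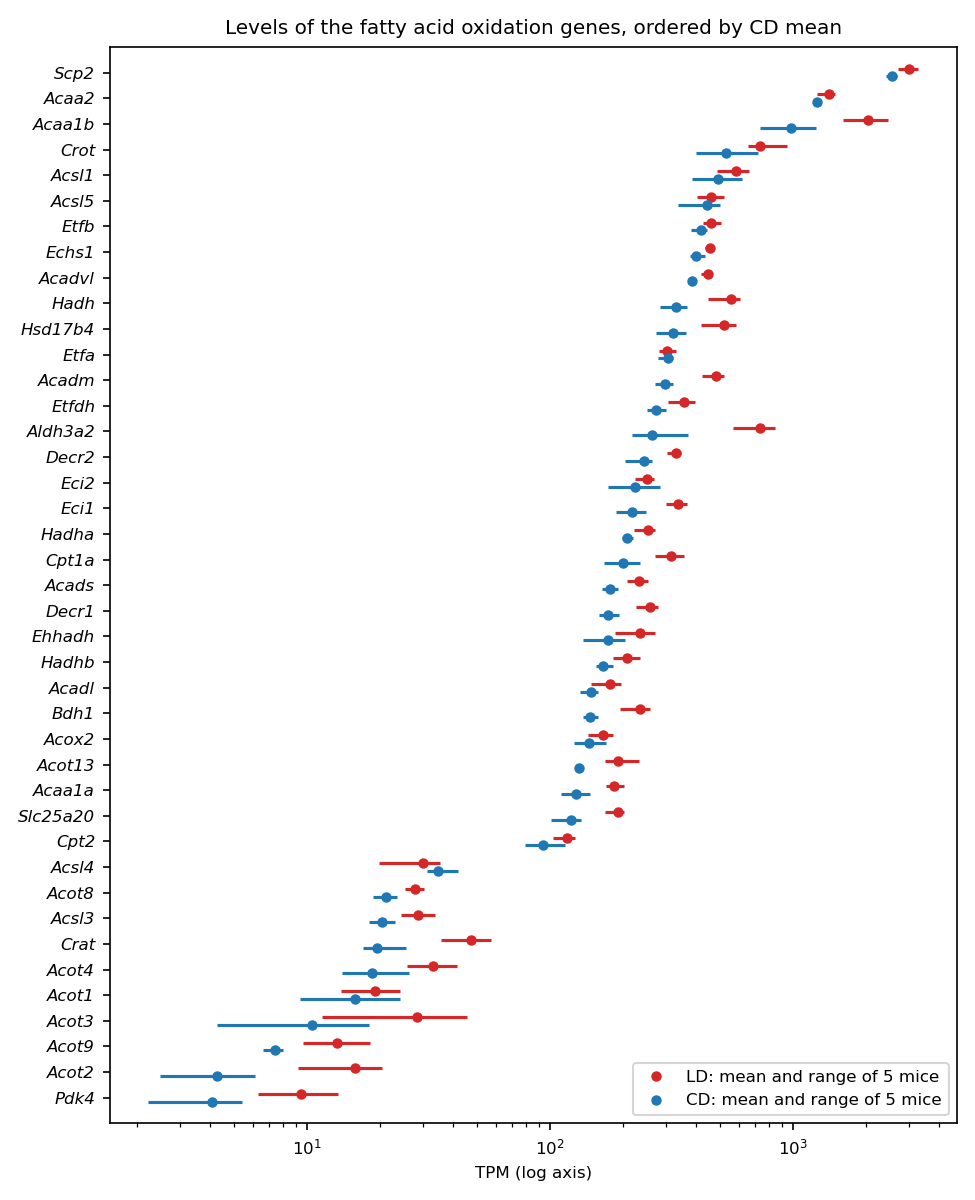
Mean and range of TPM over 5 mice per diet for the 41 genes on a log axis, ordered by the CD mean. Scp2 is at the top with 3008 TPM on LD and Pdk4 at the bottom with 9.41 TPM on LD.

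Other genes of FAO and its surroundings were taken from a second list of 46. Of the 42 that could be tested, 13 were called higher and 5 lower on LD, where 13.8% and 11.1% of all genes tested were called, so that the share called lower was near that of all genes. Their median log2 fold change was 0.14. The 3 largest rises were Acot6, a further thioesterase of the cluster (log2 1.39 ± 0.31 SE, edgeR adjusted p = 0.0053), Pex11a, a peroxisome proliferation factor (1.31 ± 0.11, edgeR adjusted p = 1.00e-05), and Pdk3, a kinase of pyruvate dehydrogenase (0.89 ± 0.29, edgeR adjusted p = 0.0368). Acot6 and Pdk3 were near the lower limit of detection, with means of 1.16 and 1.42 CPM on LD. The 3 largest falls were Nudt7, which cleaves CoA in peroxisomes (-1.10 ± 0.15, edgeR adjusted p = 3.24e-04), Hacl1, of peroxisomal alpha oxidation (-0.70 ± 0.09, edgeR adjusted p = 1.80e-04), and Acadsb, which serves branched-chain amino acid breakdown (-0.46 ± 0.08, edgeR adjusted p = 0.00136). Nudt7 had 597, 694, 506, 407 and 367 CPM in the LD mice and 1194, 1111, 1016, 1192 and 995 CPM in the CD mice, a wide separation in the opposite direction to the 41 genes.

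Of 6 regulators, 1 was called higher and 2 lower. The 2 lower genes, named after their values were seen, were Ppargc1a, a coactivator of PPARα (log2 -0.73 ± 0.12 SE, edgeR adjusted p = 7.01e-04, diets without overlap), and Foxo1, a transcription factor restrained by insulin (-0.43 ± 0.12 SE, edgeR adjusted p = 0.0152). Ppara rose by a log2 fold change of 0.34 ± 0.10 (SE, edgeR adjusted p = 0.016), with overlapping mice. Hnf4a and Cebpa gave -0.26 each (edgeR adjusted p = 0.0176 and 0.0202) and were not called, since they fell short of the fold threshold. Every LD mouse lay below every CD mouse for Cebpa, while the mice overlapped for Hnf4a. Marker genes of other cells also differed between these livers. Summed CPM of 7 stellate cell markers ran from 498 to 706 on LD and from 391 to 518 on CD (3 of 7 called higher), and of 5 cholangiocyte markers from 45.9 to 121 on LD and from 18.8 to 32.1 on CD (1 of 5 higher). The called cholangiocyte gene was Spp1, with means of 66.5 CPM on LD and 16.8 CPM on CD, while Krt19, Krt7, Epcam and Sox9 had means of at most 1.72 CPM on either diet. Summed macrophage markers ran from 358 to 1080 CPM on LD and from 347 to 674 CPM on CD (2 of 8 higher), and summed hepatocyte markers from 95620 to 109900 CPM on LD and from 105700 to 117400 CPM on CD (3 of 8 lower). Endothelial markers ran from 427 to 592 CPM on LD and from 473 to 583 CPM on CD (1 of 7 higher), and lymphocyte markers from 4.08 to 9.23 CPM on LD and from 5.08 to 6.38 CPM on CD (1 of 8 higher and 1 lower). Adipocyte markers ran from 56.3 to 73.9 CPM on LD and from 29.1 to 35.9 CPM on CD (2 of 2 tested higher), but Lep and Plin1 were at 0 counts and Adipoq and Retn under the filter. The part of these cells in the results above was not tested.

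H3K27ac, a histone mark of active promoters and enhancers, was deposited as peak intervals, so it was measured as the share of the 10 kb centred on each transcription start site (TSS) that lay under peaks. All 41 genes had peaks in all 6 samples, as had 88.5% of all start sites. Median coverage was 67.6% on LD and 65.4% on CD for the 41 genes, against 34.4% and 31.3% for 13484 start sites of genes tested in RNA. Every LD sample lay above every CD sample for 11 of the 41 genes (26.8%), and every LD sample lay below every CD sample for 1 gene (2.44%). Over all start sites these shares were 10.7% and 3.27%. With 3 samples against 3, an exact permutation test of 1 gene cannot give a p under 0.1, and coverage is given here as a description, with no test run on it. The LD peak lists also covered more of the genome in all (149.8 to 160.4 Mb, against 139.7 to 145.4 Mb on CD), and the part of this in the counts was not tested.

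The genes with higher coverage on LD included Acot1, Acot2, Acot3 and Acot4 of the thioesterase cluster. Coverage of other genes of the cluster was not examined one by one. Acot3 coverage was 63.0%, 59.0% and 65.0% across LD samples, against 30.0%, 26.0% and 53.0% across CD samples, the largest difference at 26.0 percentage points. Acot1 coverage was 34.0%, 36.0% and 38.0% on LD against 16.0%, 16.0% and 30.0% on CD. Acot2 coverage was 34.0%, 24.0% and 38.0% on LD against 16.0%, 14.0% and 22.0% on CD. Acot4 coverage was 88.0%, 86.0% and 84.0% on LD against 76.0%, 62.0% and 80.0% on CD. The 10 kb windows of these 4 genes do not overlap, although they are neighbours. Acot1 was thus a gene with higher coverage and no call in RNA.

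Outside this cluster, Acadm coverage reached 91.9%, 93.9% and 82.0% in the LD samples against 72.0%, 73.9% and 67.9% in the CD samples. The others were Eci2, Acaa2, Acaa1a, Hsd17b4, Decr2 and Etfb, with mean differences of 17.96, 11.1, 11.4, 10.7, 9.33 and 6.53 percentage points. Of the 11 genes with higher coverage, 6 were called in RNA, as were 17 of the other 30. Cpt2 was the gene with every LD sample below every CD sample, at 44%, 40% and 44% against 46%, 60% and 56%, but its groups overlapped in windows of 4 kb and of 40 kb. Echs1, the enoyl-CoA hydratase of the spiral, had the lowest mean difference of the 41 genes, at -18.8 percentage points. Its coverage was 80%, 64.8% and 56% on LD against 89.2%, 75.2% and 92.8% on CD, so the groups overlapped at 10 kb, while every LD sample lay below every CD sample at 4 kb and at 40 kb. Acadl coverage was 38%, 32% and 38% on LD against 42%, 36% and 54% on CD, with overlapping groups. The spiral thus held differences in both directions.

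The windows of 2 genes with strong RNA changes were nearly full. Aldh3a2 was covered to 100% in all LD samples and to 92.9%, 100% and 100% in the CD samples, and Acaa1b to 100% in all 6. Crat coverage was 75.3%, 71.3% and 83.3% on LD against 61.3%, 49.3% and 77.3% on CD, and Pdk4 coverage was 42%, 54% and 60% on LD against 42%, 40% and 34% on CD. For Crat, CD sample 3 lay within the LD range, and for Pdk4, LD sample 1 equalled CD sample 1. With a 4 kb window, 7 genes were higher and 2 lower on LD, where all start sites gave 7.16% higher and 1.79% lower. With 40 kb, 10 were higher and 3 lower, where all start sites gave 17.7% higher and 5.14% lower. Acot1, Acot2, Acot3 and Acot4 are among the 10, and the 40 kb windows of neighbours in this cluster overlap.

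**Figure D4:**
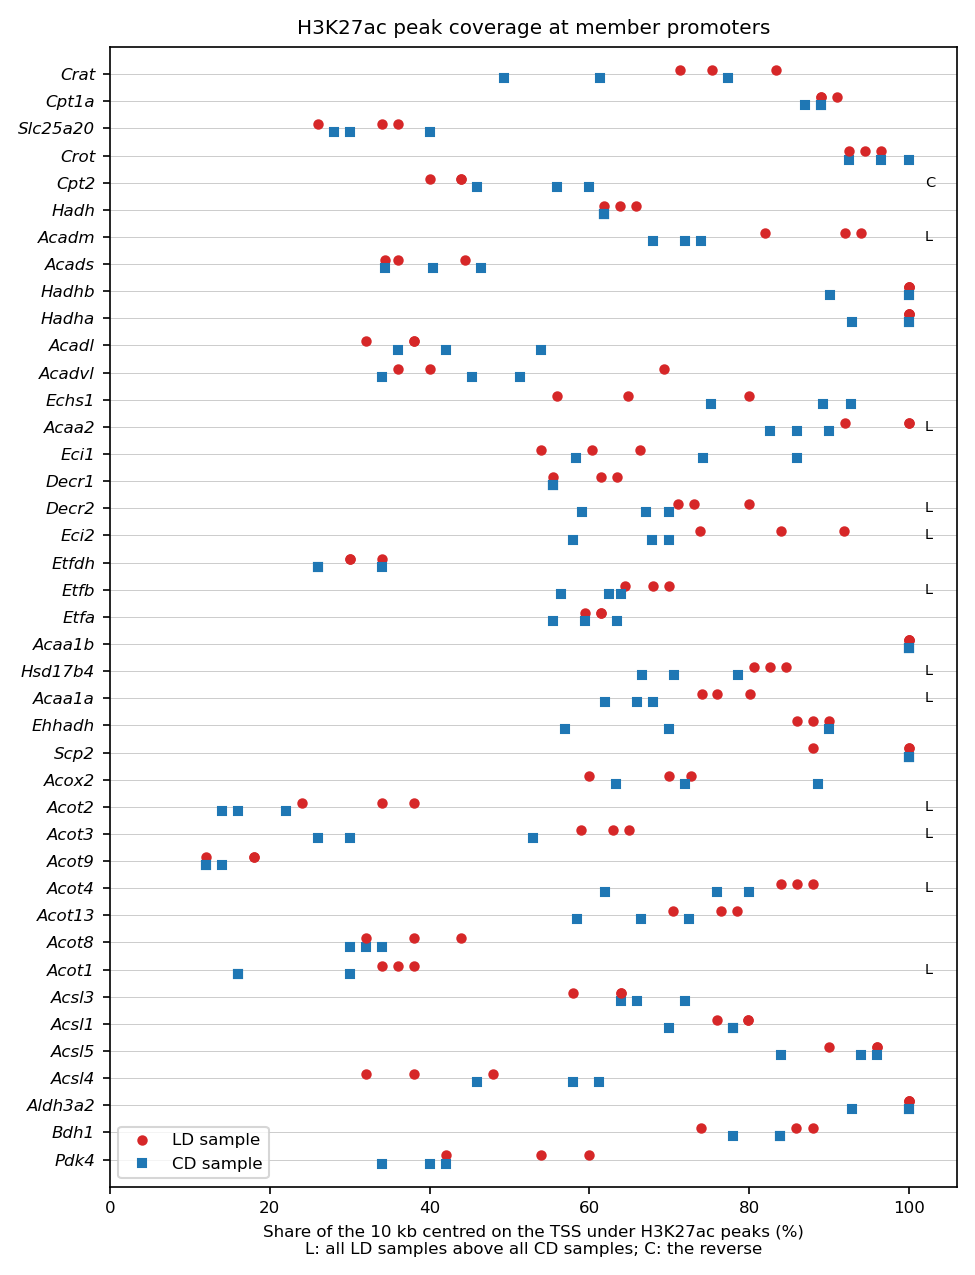
Share (%) of the 10 kb centred on each TSS under H3K27ac peaks in 3 LD (circles) and 3 CD samples (squares), where L marks the 11 genes with every LD sample above every CD sample and C the 1 gene with the reverse. Acot1, Acot2, Acot3 and Acot4 all carry an L.

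Hnf4α peaks lay near most of these genes. A locus with a peak in all 4 samples lay within 10 kb of the TSS for 32 of the 41 genes (78.0%), and within 500 bp for 23 (56.1%). Among all genes tested, 42.6% had such a locus within 10 kb and 15.6% within 500 bp. C/EBPα loci in all 4 samples lay near 24 of the 41 genes (58.5%), against 33.1% of all genes tested, and 23 genes (56.1%) had loci of both factors, against 22.5%. These shares are descriptions and were not tested.

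Hnf4α peak heights (tag counts scaled by the authors to library size) were compared with 2 samples per diet, and the standard errors of the log2 differences were wide. Of 63 loci, 0 were called by limma at an adjusted p under 0.05 with a fold change above 1.5, 0 had an unadjusted p under 0.05, and 0% of all 23331 loci were called in either direction. The CD samples differed from each other: CD sample 1 was the lowest of the 4 at 57 of the 63 loci and CD sample 2 the highest at 55. Both LD samples lay above both CD samples at 3 loci (4.76%; 16.6% of all loci), and below at 0 (2.61% of all loci). At the Cpt1a locus shown above, heights were 122 and 114 on LD and 78.8 and 151 on CD, with a log2 difference of 0.11 ± 0.71 (SE). The median log2 difference over the 63 loci was 0.04, against 0.15 at all loci, and after quantile normalization -0.13 and -0.02, so its direction depended on the scaling. At the Pdk4 promoter locus, heights were 56.8 and 63.8 on LD and 47.8 and 98.0 on CD, and at the upstream Ehhadh locus 35.8 and 35.8 on LD and 22.5 and 48.0 on CD. The Aldh3a2 locus had 32.0 and 33.0 on LD and 20.5 and 44.0 on CD, and the Acot3 locus 69.0 and 54.2 on LD and 35 and 60.5 on CD. In each of these 5, the LD samples fell between the 2 CD samples or overlapped them.

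The intronic Hadha locus was one of the 3 with separate diets. It lies 2356 bp downstream of the Hadha TSS and upstream of Hadhb, since these 2 genes start 273 bp apart on opposite strands. Hnf4α heights there were 69.2 and 64.8 on LD and 27.8 and 44.8 on CD, a log2 difference of 0.92 ± 0.70 (SE, limma adjusted p = 1). A C/EBPα peak lay at the same place in both LD samples, with heights of 36.5 and 46.5, and in no CD sample. After quantile normalization this locus was called for Hnf4α (log2 difference 0.77, limma adjusted p = 0.0388). It was the only Hnf4α locus near these genes called under that scaling, and the share of all loci called under it is not given here. The other 2 loci with higher Hnf4α on LD lay at 4668 bp from the Acads TSS (39.0 and 37.2 against 15.5 and 29.5) and at -2562 bp from the Bdh1 TSS (66 and 70 against 41 and 63.2).

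Without quantile normalization, C/EBPα heights were lower on LD at most shared loci, in the genome as near these genes. The CD samples differed, and CD sample 1 was the highest of the 4 at 29 of the 37 loci near these genes. Median heights over all shared loci were 24 and 25.5 on LD, 37.5 in CD sample 1 and 25 in CD sample 2. The part of CD sample 1 in the lower heights on LD was not tested. The median log2 difference was -0.31 at the 37 loci near the 41 genes and -0.41 at all 13805 loci, and it was 0.01 and -0.07 after quantile normalization, so that the direction of the median near these genes depended on the scaling. Both LD samples lay below both CD samples at 14 of the 37 loci (37.8%; 46.4% of all loci) and above them at 3 (8.11%; 8.35% of all loci). Of the 37, limma called 2 lower and 0 higher, where 2.14% of all loci were called lower and 0.848% higher. After quantile normalization, 5 were called lower and 2 higher, the latter near Hsd17b4 (log2 1.41, limma adjusted p = 0.00467) and Acsl4 (log2 1.29, limma adjusted p = 0.00797). The shares of all loci just given belong to the fit without quantile normalization, so the 5 and the 2 have no such share beside them.

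The 2 loci called without quantile normalization lay near Acaa2 and Acsl1, and neither was called with the replicate number as a block. The Acaa2 locus, 780 bp upstream of the TSS, had heights of 18 and 23.5 on LD and 73.5 and 49.5 on CD (log2 -1.55 ± 0.43 SE, limma adjusted p = 0.0231). The Acsl1 locus, 7232 bp into the gene, had 17.5 and 13.5 on LD and 42.5 and 43.5 on CD (log2 -1.48 ± 0.45 SE, limma adjusted p = 0.0414), and its core sequence is shown above. Neither gene was called in RNA. Without any 1 of the 4 libraries (LD replicate 1 or 2, CD replicate 1 or 2), 0 of the loci near these genes were called, in fits of 1 sample against 2 that assume the lone sample to vary like the other pair, so these fits say little about the loci. Beside the Acaa1b sequence shown above, whose capitals mark a C/EBP string, C/EBPα heights were 31.0 and 57.5 on LD and 116 and 82 on CD (log2 -1.2 ± 0.38 SE, limma adjusted p = 0.0541, and 0.0178 after quantile normalization), while Acaa1b RNA rose.

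Some C/EBPα peaks were listed on one diet alone. Of 128 C/EBPα loci within 10 kb of the 41 genes, 15 (11.7%) had a peak in both LD samples and in no CD sample, and 2 (1.56%) the reverse, against 5.18% and 1.77% of all 97370 loci. At the Slc25a20 locus 1942 bp downstream of the TSS, heights were 10.5 and 11.0. At the Aldh3a2 locus 3136 bp downstream they were 17.0 and 10.5. The highest besides that in Hadha was 1101 bp downstream of the Acot3 TSS, with 32.5 and 35. Over all peaks of LD samples 1 and 2, median heights were 11.5 and 12.5, above both Slc25a20 heights and the second Aldh3a2 height. Whether low signal kept such loci off the CD lists was not tested. Median peak width also differed between the C/EBPα lists, from 237 and 251 bp on LD to 315 and 287 bp on CD, and its part was not tested. For Hnf4α, 3 loci were on LD alone and 3 on CD alone, of 126 (2.38% each), against 4.85% and 2.57% of all loci. Near Acsl5, an LD-only locus (chr19:55322133-55322351) and a CD-only locus (chr19:55322510-55322728) are neighbours that do not overlap. Whether they are the same site was not tested.

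**Figure D5:**
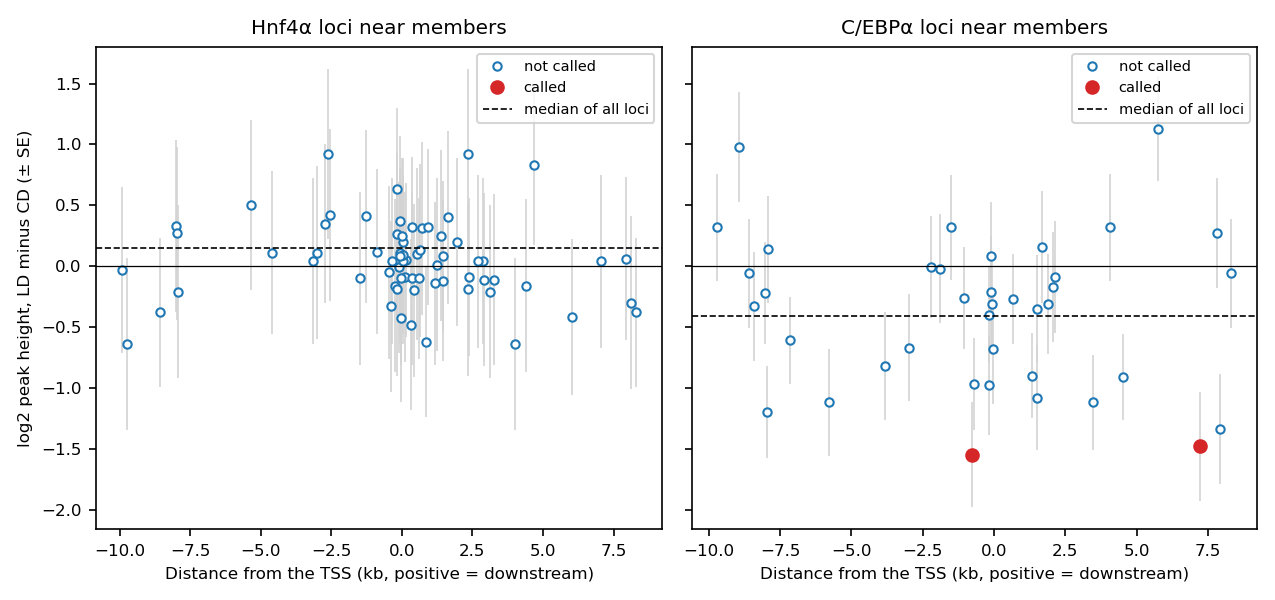
log2 difference in peak height (LD minus CD, with SE) against distance from the TSS in kb for loci with peaks in all 4 samples, 63 for Hnf4α and 37 for C/EBPα, drawn once for each gene they lie near, where the dashed line is the median of all loci (0.15 and -0.41). Only 2 C/EBPα loci are filled as called, both below the line.

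The strings were also counted in all loci. In the central 200 bp, CAAAGTNCA was found in 8 of the 63 Hnf4α loci (12.7%) and in 13.4% of all Hnf4α loci. The narrower CAAAGTCCA, searched first, was found in 1 (1.59%) and in 6.41% of all Hnf4α loci, and DR1 in 2 (3.17%) and in 2.52% of all. TTGCNNAA was found in 14 of the 37 C/EBPα loci (37.8%) and in 46.7% of all C/EBPα loci. Both strands were searched, and a match is a description of the letters.

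PCHi-C captures DNA ligated to promoter fragments, and the deposited lists hold 1 CHiCAGO score (a measure of contact above background) per pair of fragments and diet, with replicates pooled, and no test was run on them. The promoter fragments of 32 of the 41 genes had listed contacts, 227 on LD and 256 on CD when counted per gene (226 and 254 when a contact shared by 2 of the genes is counted once). Contacts in both lists made up 159, which is 70% of the LD contacts and 62.1% of the CD contacts, against 69.5% and 70.1% over all 151203 LD and 149798 CD contacts. Listed contacts were more numerous on LD for 8 of the 32 genes (25%), on CD for 20 (62.5%), and equal for 4 (12.5%). Over all 16125 genes with a listed contact, these shares were 44.7%, 37.7% and 17.5%. Genes that share a promoter fragment share its contacts, and pooling leaves no spread between samples to set against these counts.

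Crat went from 1 contact on CD to 7 on LD, with 0 shared and a highest score of 8.66 on LD. Crot had 30 contacts on CD and 20 on LD (highest scores 12.6 and 9.34), and Acsl3 had 15 and 8 (23.4 and 15.1). Cpt1a had 10 contacts on LD and 8 on CD, 7 of them shared, and Acsl1 had 20 and 23, 20 of them shared. Acot4 had the highest score of the 41 genes on both diets (34.6 on LD and 33.8 on CD), and the pair Acot2 and Acot4 was among the contacts of the cluster. Pdk4, Ehhadh, Scp2, Acsl5, Cpt2, Etfa, Eci2, Decr2 and Acot1 had no listed contact on either diet.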

How the data were processed

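Livers of male mice on LD or CD were profiled by RNA-seq, ChIP-seq and PCHi-C, and all coordinates are mm9. The submitters' processing notes name STAR 2.5, Subread and featureCounts 1.5.0-p1 for RNA, and Bowtie 0.12.8, Picard 1.110, SICER, HOMER and bedtools for ChIP-seq. The authors deposited raw counts per gene (stranded counting) and TPM values they computed from read counts. The H3K27ac files deposited by the authors hold SICER intervals called per sample, with no signal. The Hnf4α and C/EBPα files deposited by the authors hold HOMER peaks called per sample against input, with a signal, here called height, of tags per peak normalized by HOMER for sequencing depth. The contact lists deposited by the authors hold CHiCAGO scores of at least 5 on pooled replicates. Columns with the authors' own diet comparison and the domain files were not used, and input, Hi-C and single-replicate PCHi-C data were not analysed here.

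Counts were tested with edgeR 4.0.16 in R 4.3.3 (TMM, filter on low counts, robust quasi-likelihood fit, 5 against 5 mice) over all genes, with Benjamini-Hochberg adjustment. Calls needed an adjusted p under 0.05 and a fold change above 1.2. Peaks of a factor that overlapped by at least 1 bp were merged into loci, and log2 heights of loci with peaks in all 4 samples were tested with limma 3.58.1, with calls at an adjusted p under 0.05 and a fold change above 1.5. On simulated data with 200 changed genes among 13414, edgeR recovered 87 of 100 with a log2 change of 1 and 99 of 100 with a log2 change of 2, with 8 false calls. Alternatives were DESeq2 1.42.0, its size factors, other count filters, limma on log2(TPM + 1) and log2(TPM + 0.1), other fold thresholds, the replicate number as a block, each library left out, other windows and distances, quantile normalization and a stricter contact score.

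The 41 genes, the gene lists and the tests were chosen with earlier results of these data known. Named genes are the 41, the 3 called genes with the largest change in each direction among the other pathway genes, and Ppara, Hnf4a and Cebpa (a few others are named after their values were seen), with marker lists given by counts and summed level. Strings of sequence letters were searched on both strands of the mm9 plus-strand sequence.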

Additional observations from a re-analysis of the deposited data

Results flagged for a closer look

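A CD mouse stood apart from its group in 1 gene: Crat had 61.13 CPM in CD replicate 4, where the other CD mice ranged from 40.8 to 46.4 CPM, so that the gap to the nearest mouse was 0.727 of the whole range. It was 1 of 82 groups of 5 mice examined, and chance alone flags about 1 in 20 groups. All LD mice remained above this value.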

How the results depend on the processing

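The count of FAO genes higher on LD was 23, between 21 and 25 with 1 library left out, and 15 when edgeR tested against a fold change of 1.2 rather than 0. It was 27 with limma on TPM, 25 with DESeq2 and 24 without robust estimation (a setting chosen after seeing the data), and 0 genes were lower in any setting. The median log2 fold change of the 41 genes ran from 0.31 to 0.40 with 1 library left out. Of the other pathway genes, 13 were higher (12 to 14 with 1 library left out, 8 against a fold change of 1.2) and 5 lower (4 to 7 with 1 library left out, 3 against a fold change of 1.2, and 3 with limma on TPM at either pseudocount). Over all genes, limma on TPM called 2227 higher and 740 lower with a pseudocount of 1, and 2330 and 778 with 0.1. By edgeR 1859 and 1498 were called, and the test against a fold change of 1.2 called 919 and 459. The median log2 fold change over all genes was 0.0563 and 0.0712 with limma on TPM (pseudocounts 1 and 0.1), against -0.0019 by edgeR. Acsl5 changed sign to 0.0682 and 0.0684 with limma on TPM and ran from -0.1094 to 0.0472 with 1 library left out. The causes were not tested. Of 328 values of single genes under settings other than leaving out a library or changing the fold threshold (the test against a fold change of 1.2 lost calls, as above), 313 kept direction and call, 13 gained a call and 2 changed sign. Of 410 with a library left out, 393 kept both, 7 lost and 6 gained a call, and 4 changed sign.

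For H3K27ac, genes separated upwards numbered 12 to 14 with 1 sample left out and 7 in a 4 kb window, and genes separated downwards 1 to 4 with 1 sample left out (4 without CD replicate 2), 2 in a 4 kb window and 3 in a 40 kb window, where fewer samples separate more easily. For Hnf4α, quantile normalization called 1 locus. For C/EBPα, quantile normalization called 7 loci (2 higher and 5 lower), and loci within 50 kb gave 7. The share of all loci called after quantile normalization and the number tested within 50 kb are not given here. These counts are therefore descriptions. Contacts with a score of at least 10 numbered 33 on LD and 49 on CD.

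Replicate numbers did not pair the mice: the correlation of deviations between same-numbered mice ran from -0.078 to 0.1914, and in 1 of 5 pairs it exceeded the best correlation with another number. With the replicate block, 25 FAO genes were higher, Acot3 and Crot among them (edgeR adjusted p = 9.12e-05 and 0.0195). For the factors these correlations were 0.02 (Hnf4α) and -0.05 (C/EBPα), and with the replicate block 0 C/EBPα loci were called.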
